A study of Chlamydomonas reinhardtii with 28 samples.

Results

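In the green alga Chlamydomonas reinhardtii, 1707 peaks of monomethylated lysine 9 of histone H3 (H3K9me1) were of intermediate width, lay in the interior of a chromosome and had no wide H3K9me1 peak beside them. They are called members below. They were selected on measured width and position: the wild-type (WT) H3K9me1 peaks of 1000 to 4999 bp on chromosomes 1 to 17 whose midpoint lay over 50 kb from both chromosome ends and that had no H3K9me1 peak of 5000 bp or more of the same list within 5 kb. The WT mt+ list gave 848 members of 3831 H3K9me1 peaks, and the WT mt- list gave 859 of 4113. All 18 peak lists together held 152930 peaks.

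The libraries came from vegetative cells grown in TAP medium, fixed with formaldehyde, sonicated and precipitated with an antibody against 1 histone mark (chromatin immunoprecipitation sequencing, ChIP-seq). The groups were a DNMT1 knockout (dnmt1), a SET3 knockout (set3) and WT, each in 2 strains, CC-5155, whose mating type is plus (mt+), and CC-5325, whose mating type is minus (mt-). H3K9me1 (Abcam antibody) was mapped in dnmt1, set3 and WT, while H3K4me1 and H3K4me3 (Abcam) and H3K9me3 (Cell Signaling Technology) were mapped in dnmt1 and WT. Each combination of mark, genotype and strain had 1 library, so no difference below carries a replicate error or a p-value, and genotype cannot be told apart from the library. Of the 28 samples, 10 were inputs, whose own files were not analysed here, and within a strain and genotype the same input served H3K4me3, H3K9me3 and H3K4me1. The labels do not say how many clones stand behind each knockout.

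DNMT1 is a maintenance cytosine methyltransferase, which restores methylation on newly copied DNA. In Chlamydomonas, H3K9me1 is known as a mark of silent chromatin at repeats and transgenes, and SET3 is a SET-domain protein needed for its deposition. H3K4me3 is found at the promoters of active genes in plants, animals and fungi.

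A member was called found in another list when a peak of that list overlapped it by at least 1 bp. Shares are given with Wilson 95% intervals, which cover counting error only and treat neighbouring peaks as independent. Because a longer region is hit more easily, the part of the members' total length that lay under peaks is given as well. Shares over all WT peaks, or pairs of them, given beside those of members also count peaks outside the interiors, where no member can lie. Interior peaks were 3384 of 3831 in the WT mt+ H3K9me1 list and 3697 of 4113 in the WT mt- list. The lists hold no read counts, and the depth behind each call was not derived here. As a stand-in for the detection level, the interior peaks just past the authors' q-value threshold of 0.01 (a −log10 q-value below 2.5) had a median fold of 1.79 in dnmt1 mt+, 1.61 in dnmt1 mt-, 1.81 in set3 mt+, 1.75 in set3 mt-, 1.56 in WT mt+ and 1.48 in WT mt- for H3K9me1. The fold is the authors' enrichment at the peak summit over the local background. Folds are used here mainly to describe or rank peaks within their own list. Across lists, they serve as the stand-in above and are set side by side for regions shared by the WT lists, without scaling between lists. The H3K4me1 lists stood apart in length, with 12718 peaks in dnmt1 mt+, 1104 in dnmt1 mt-, 2067 in WT mt+ and 5151 in WT mt-.

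Members made up 22.1% of the peaks and 24.8% of the length of the WT mt+ H3K9me1 list, 1859 kb in all. In WT mt- they made up 20.9% of the peaks and 23.7% of the length, 1876 kb in all. Their median width was 1894 bp in WT mt+ and 1881 bp in WT mt-, and more than 1 in 2 were under 2 kb. In WT mt+, 462 members were 1 to 2 kb wide, 208 were 2 to 3 kb and 178 were 3 to 5 kb. In WT mt- the same classes held 462, 214 and 183 members. The median fold was 3.09 in WT mt+, with a range of 1.27 to 6.48, and 3.04 in WT mt-, with a range of 1.29 to 5.95. Wider members tended to have higher folds, with a Spearman rho across members of 0.24 in WT mt+ and 0.26 in WT mt-. These values describe what the width rule selected, from peaks of 1 library each. The summit lay in the middle 50% of the peak for 67.5% of members in WT mt+ and 68.7% in WT mt-.

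The width limits cut through a continuous distribution. Just inside the lower limit in WT mt+ were peaks of 1001, 1005 and 1006 bp with folds of 2.08, 1.92 and 1.98, and just outside were 3 peaks of 999 bp with folds of 4.04, 4.27 and 1.96. In WT mt-, peaks of 1007, 1007 and 1008 bp had folds of 2.85, 2.32 and 2.08, and peaks of 998, 997 and 996 bp just outside had 2.23, 3.79 and 3.52. At the upper limit in WT mt+, members of 4990, 4934 and 4920 bp had folds of 3.61, 6.04 and 2.93, and peaks of 5015, 5026 and 5029 bp just outside had 4.64, 3.86 and 2.97. In WT mt-, members of 4985, 4981 and 4952 bp had folds of 3.09, 3.02 and 3.29, and peaks of 5001, 5003 and 5015 bp had 3.00, 3.48 and 3.36. The folds on both sides of a limit overlapped.

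Most members were not alone. The nearest other H3K9me1 peak of the same list lay at a median of 358 bp from the member in WT mt+ and 400 bp in WT mt-. It was under 500 bp away for 492 of 848 members in WT mt+ and 483 of 859 in WT mt-, and over 5 kb away for 119 and 113. When H3K9me1 peaks with up to 5 kb between them were joined, the members fell into 420 joined intervals in WT mt+ and 422 in WT mt-. The median joined interval was 6.58 kb long in WT mt+, and 6.87 kb long in WT mt-. Joined intervals of over 20 kb held 227 WT mt+ members (26.8%) and 283 WT mt- members (32.9%). The longest measured 278 kb (WT mt+) and 283 kb (WT mt-). The rule bars a wide peak within 5 kb, so a stretch of H3K9me1 that was called as many separate peaks still contributed members.

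Members also followed one another along the chromosomes. Counting members with under 20 kb between neighbours as a run, WT mt+ had 403 runs, of which 213 were single members, and WT mt- had 395, of which 206 were single. Runs of 5 or more held 201 WT mt+ members (23.7%) and 191 WT mt- members (22.2%), and the longest run had 12 members in each list. The 3 longest runs of both lists lay on chromosomes 3, 12 and 15. On chromosome 12 the run spanned 977111 to 1020083 in WT mt+, with 12 members, and 978420 to 1038644 in WT mt-, with 11. On chromosome 15 it spanned 2103667 to 2164878 in WT mt+, with 12 members, and 2110103 to 2164873 in WT mt-, with 10. On chromosome 3 it spanned 7083877 to 7120530 in WT mt+, with 11 members, and 7083905 to 7120616 in WT mt-, with 12. Coordinates follow the deposited lists and are counted from 1. No label or header names the assembly they refer to, so no gene or repeat is assigned to any region.

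Chromosome 15 had the highest density of members. It held 120 members in WT mt+ and 125 in WT mt-, which is 20.8 and 21.7 per Mb of its interior. The other 16 chromosomes together had 6.94 per Mb in WT mt+ and 7 in WT mt-. Chromosome 2 had the lowest density, with 4.56 per Mb in WT mt+ and 5.03 in WT mt-.

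**Figure D1:**
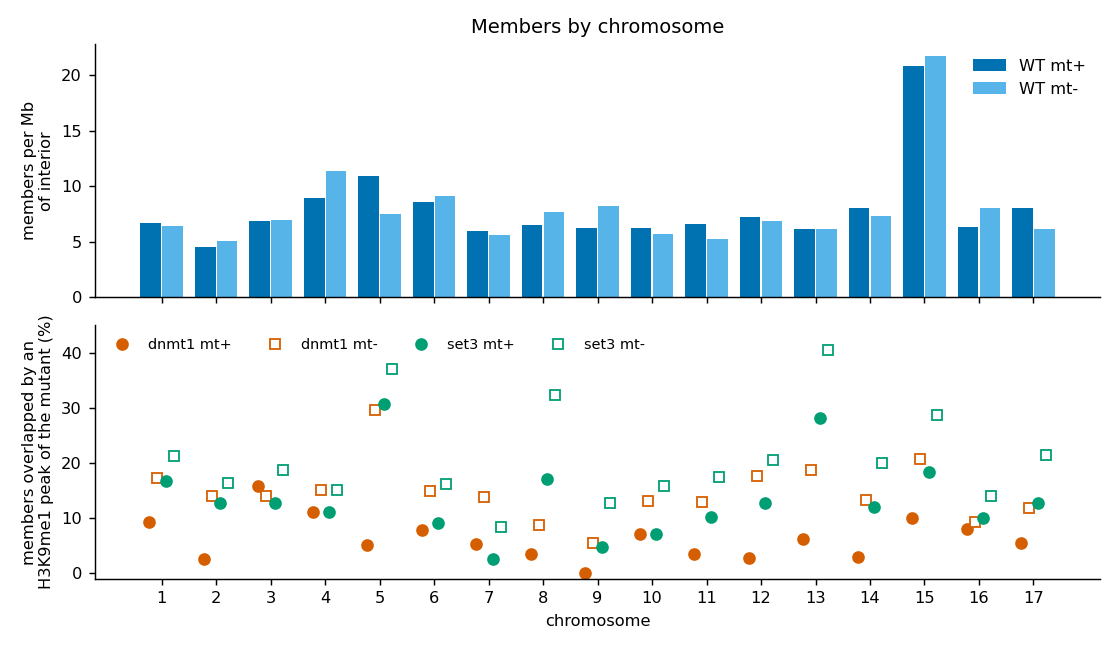
Members per Mb of chromosome interior in WT mt+ and WT mt- (top, bars), and the share of members overlapped by an H3K9me1 peak of dnmt1 or set3 of the same strain (bottom, points, percent), for each of the 17 chromosomes, with 1 library per bar or point. Chromosome 15 stands above the others in density at 20.8 and 21.7 members per Mb, while its shares of 10.0% (dnmt1 mt+), 20.8% (dnmt1 mt-), 18.3% (set3 mt+) and 28.8% (set3 mt-) lie within the spread of the other chromosomes.

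Members were largely found again in WT of the other mating type. A WT mt- H3K9me1 peak overlapped 782 of 848 WT mt+ members (92.2%, 95% interval 90.2 to 93.8), against 81.2% of all WT mt+ H3K9me1 peaks. A WT mt+ peak overlapped 768 of 859 WT mt- members (89.4%, 87.2 to 91.3), against 75.0% of all WT mt- peaks. To at least 50% of their width, 89.0% of the WT mt+ members and 82.4% of the WT mt- members were covered, against 78.4% and 70.6% of all peaks of their lists. The peaks covered 86.1% of the length of the WT mt+ members and 81.1% of that of the WT mt- members. Of the WT mt+ members, 598 (70.5%) met a WT mt- member, 52 (6.13%) a wide peak, 33 (3.89%) a peak of 1000 to 4999 bp that was not a member, and 99 (11.7%) only a peak under 1000 bp. For WT mt- members the counts were 595 (69.3%), 36 (4.19%), 22 (2.56%) and 115 (13.4%).

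In 545 regions a WT mt+ and a WT mt- member covered at least 50% of each other, which is 64.3% of the WT mt+ and 63.4% of the WT mt- members. Their edges differed by a median of 62.5 bp, and in 302 regions both edges lay within 200 bp. The ratio of widths, mt+ over mt-, had a median of 0.999, with 10th and 90th percentiles of 0.720 and 1.31. Across these regions the rank order of the fold in WT mt+ and in WT mt- had a Spearman rho of 0.813, and that of the width 0.824. These correlations describe regions that share 2 libraries and were selected for overlapping each other.

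**Figure D2:**
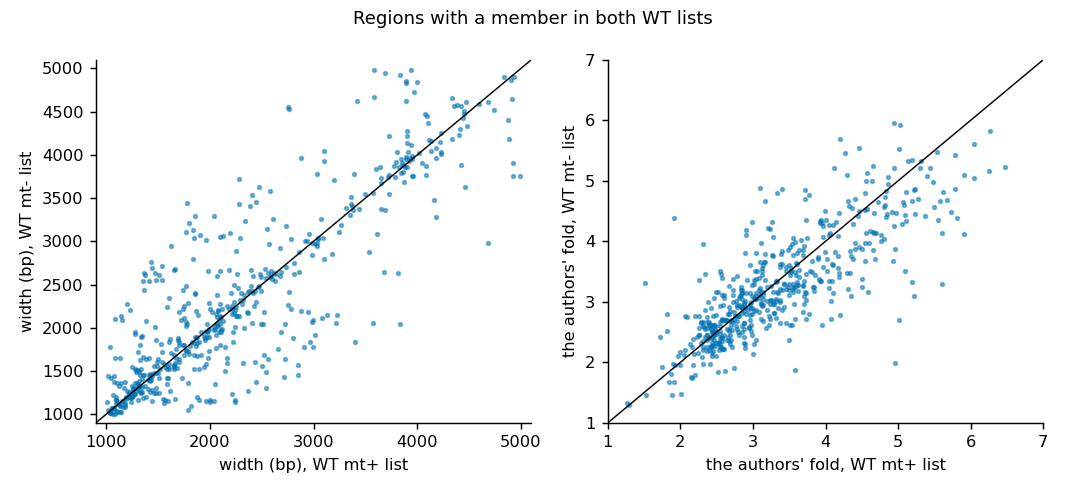
Width in bp (left) and the authors' fold (right) of the 545 regions with a member in both WT lists, WT mt+ on the horizontal and WT mt- on the vertical axis, 1 point per region, with the line of equal values. Points gather along the line for width (Spearman rho 0.824) and for fold (0.813), and widths scatter up to the limits of 1000 and 4999 bp set by the rule.

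A smaller number of members had no H3K9me1 peak in the other strain, 66 in WT mt+ (7.78%) and 91 in WT mt- (10.6%). They were spread over 16 chromosomes in each list. Their median width was 1454 bp in both lists. Their median fold in the WT mt+ list was 3.08, against 3.09 for the members with a counterpart. In the WT mt- list it was 2.82, against 3.06 for those with a counterpart. For 45 of the 66 and 51 of the 91 the nearest H3K9me1 peak of the other strain was over 5 kb away. The WT mt- ones were most frequent on chromosome 6, with 17, and chromosome 16, with 15. The following 3 examples, those with the highest folds in each list, were chosen after their values were seen. In WT mt+ they lay on chromosome 4 from 1462377 to 1464636 (fold 5.32, nearest WT mt- peak 44.8 kb away), chromosome 2 from 1577577 to 1579930 (4.62, 71.4 kb) and chromosome 1 from 2695114 to 2697807 (4.49, 57.0 kb). The nearest other peak of their own list was 65.4, 71.3 and 62.2 kb away. In WT mt- they lay on chromosome 16 from 3261029 to 3263522 (fold 4.53, nearest WT mt+ peak 34.9 kb away), chromosome 8 from 994020 to 996273 (4.47, 4.44 kb) and chromosome 16 from 3273705 to 3275361 (4.43, 23.0 kb). In none of the 6 did a dnmt1 H3K9me1 peak of either strain overlap the region, and in the one on chromosome 1 set3 peaks covered 13.4% in mt+ and 8.87% in mt-.

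Few members overlapped an H3K9me1 peak of dnmt1, and the share over the whole WT H3K9me1 list was low too. In mt+, 59 of 848 members were found in dnmt1 (6.96%, 95% interval 5.43 to 8.87), against 10.2% of all WT mt+ H3K9me1 peaks, and dnmt1 peaks covered 1.97% of the members' length. In mt-, 129 of 859 were found (15%, 12.8 to 17.6), against 16.0% of all WT mt- peaks, and 4.47% of the length was covered. The share over all peaks, which also counts peaks outside the interiors, lay above the members' interval in mt+ and inside it in mt-. The part of those outside peaks in this comparison was not tested. A member covered to at least 50% was rarer still, with 11 (1.30%) in dnmt1 mt+ and 23 (2.68%) in dnmt1 mt-. Over all peaks of the corresponding WT list, also outside the interiors, the shares were 4.02% and 5.54%. For interior peaks shorter than members they were 1.95% in mt+ and 4.26% in mt-. The first lay inside the members' interval of 0.726 to 2.31, the second above theirs of 1.79 to 3.99. Wide interior peaks had 2.52% and 5.24%, and those of member width near a wide peak 4.64% and 7.08%. The covered share of the whole chromosome interiors was 0.423% in dnmt1 mt+ and 1.15% in dnmt1 mt-. The share found followed the dnmt1 list rather than the list that supplied the members: dnmt1 mt- peaks overlapped 15.6% of the WT mt+ members, and dnmt1 mt+ peaks overlapped 7.57% of the WT mt- members. The dnmt1 mt- list was the longer, with 2716 peaks against 1248 in dnmt1 mt+, and reached a lower fold near its threshold, 1.61 against 1.79. The part of that difference in the strain difference was not tested.

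By an overlap of at least 1 bp, the share of members found in set3 was near that of all WT H3K9me1 peaks in mt+ and above it in mt-. By at least 50% covered, it was below that of all peaks in both strains. In set3 mt+, 115 of 848 members were found (13.6%, 11.4 to 16.0), against 13.5% of all WT mt+ H3K9me1 peaks, with 4.43% of the length covered. In set3 mt-, 178 of 859 were found (20.7%, 18.1 to 23.6), against 17.5% of all WT mt- peaks, with 6.92% of the length covered. At least 50% was covered in 18 members (2.12%) in set3 mt+ and 32 (3.73%) in set3 mt-. Over all peaks of the corresponding WT list, also outside the interiors, the shares were 4.07% and 6.01%. For interior peaks shorter than members they were 3.56% in mt+ and 5.46% in mt-. Wide interior peaks had 6.72% and 9.74%, and those of member width near a wide peak 4.12% and 7.08%. Both the members' shares and those of all peaks were higher in set3 than in dnmt1 of the same strain. The set3 lists were also longer than the dnmt1 lists of the same strain, with 2785 peaks in mt+ and 6160 in mt-, and covered 1.13% and 2.5% of the interiors. With mutant peaks limited to a −log10 q-value of at least 5, the share found was 4.60% in dnmt1 mt+, 9.66% in dnmt1 mt-, 6.49% in set3 mt+ and 11.4% in set3 mt-. Both comparisons, of dnmt1 and of set3 with WT, share the WT list, and the difference between the mutants was not tested.

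What was found in the mutants was mostly a short peak inside a longer member. The mutant peak lay wholly inside the member in 66 of 72 overlapping pairs in dnmt1 mt+, 157 of 165 in dnmt1 mt-, 138 of 150 in set3 mt+ and 206 of 230 in set3 mt-. The 72 dnmt1 mt+ peaks that overlapped a member had a median width of 430 bp, and the 165 in dnmt1 mt- one of 376 bp. The members they overlapped had median widths of 2238 bp in mt+ and 2168 bp in mt-. In set3 the 150 peaks in mt+ and 229 in mt- had median widths of 445 and 448 bp, over members with medians of 2438 and 2215 bp. Short peaks were usual in these lists: the median width of all peaks was 415 bp in dnmt1 mt+, 349 bp in dnmt1 mt-, 397 bp in set3 mt+ and 372 bp in set3 mt-. Among members that were found, the median covered part was 18.2% in dnmt1 mt+, 21.7% in dnmt1 mt-, 22.7% in set3 mt+ and 23.9% in set3 mt-. Within their own lists these peaks were of middling fold: the median was 2.21 in dnmt1 mt+, where that of all peaks was 2.2, 1.94 in dnmt1 mt-, where it was 1.88, 2.25 in set3 mt+, where it was 2.23, and 2.22 in set3 mt-, where it was 2.16. Mutant peaks of 1 kb or more over a member numbered 10 in dnmt1 mt+, 12 in dnmt1 mt-, 16 in set3 mt+ and 28 in set3 mt-.

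By the count of peaks hit, members lay between wider and narrower WT peaks of the interiors. In dnmt1 mt+, 6.96% of members were hit, against 50.4% of the peaks of 5000 bp or more (wide) and 2.66% of those under 1000 bp (narrow). In dnmt1 mt- these were 15%, 68.5% and 6.31%. In set3 mt+, 13.6% of members were hit, against 63.4% of wide and 5.09% of narrow peaks, and in set3 mt- 20.7%, against 72.3% and 8.40%. In each of the 4 mutant lists the members' share was below that of the wide peaks on 17 of 17 chromosomes. It was above that of the narrow peaks on 14 chromosomes in dnmt1 mt+, 16 in dnmt1 mt-, 13 in set3 mt+ and 16 in set3 mt-.

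By length covered, members lay close to the narrow peaks. In dnmt1 mt+, peaks covered 1.97% of the length of members, 1.77% of that of narrow peaks and 8.28% of that of wide peaks. In dnmt1 mt- these were 4.47%, 4.35% and 19.4%. In set3 mt+ they were 4.43%, 3.38% and 12.8%, and in set3 mt- 6.92%, 5.73% and 15.6%. Peaks of 1000 to 4999 bp that were no members because a wide peak lay within 5 kb numbered 194 in WT mt+ and 226 in WT mt-. The members' covered length was below theirs in each of the 4 lists, where theirs was 4.99% in dnmt1 mt+, 10.3% in dnmt1 mt-, 8.23% in set3 mt+ and 10.0% in set3 mt-. These differences between classes of WT peaks are given without a test.

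**Figure D3:**
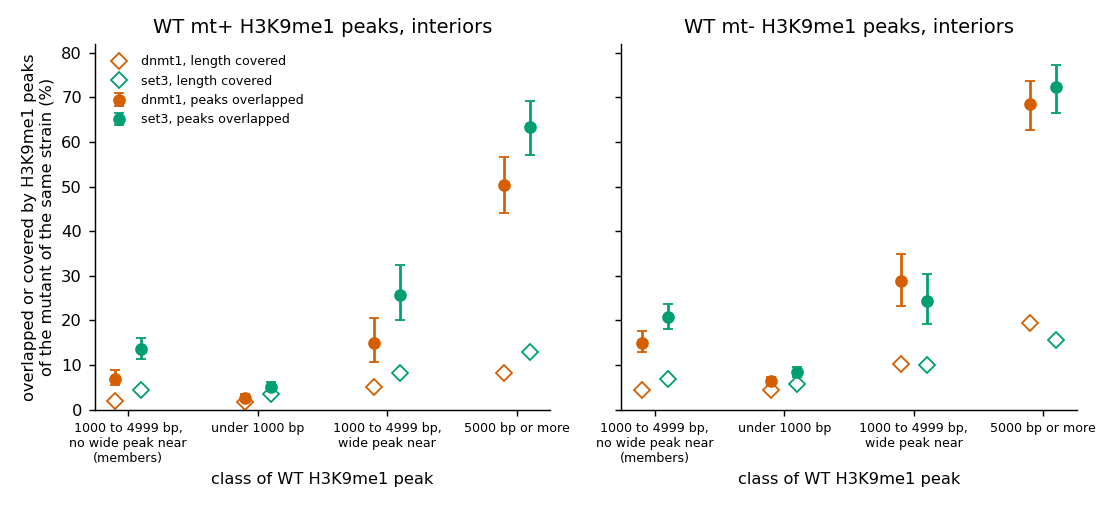
Share of WT H3K9me1 peaks of the chromosome interiors overlapped by an H3K9me1 peak of dnmt1 or set3 of the same strain (filled circles, percent, bars are Wilson 95% intervals) and share of their length covered (open diamonds, percent), by class of WT peak, with mt+ on the left and mt- on the right. The members, at 6.96% to 20.7% overlapped, lie between narrow and wide peaks, while their covered length of 1.97% to 6.92% lies near that of narrow peaks.

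Among members, wider ones were hit more often. In dnmt1 mt+ the share was 5.19% for members of 1 to 2 kb, 8.65% for 2 to 3 kb and 9.55% for 3 to 5 kb, and in dnmt1 mt- it was 11.5%, 16.4% and 22.4%. In set3 mt+ it was 8.23%, 18.3% and 21.9%, and in set3 mt- 16.0%, 21.0% and 32.2%. The covered length did not follow the width in dnmt1, with 2.03%, 2.62% and 1.44% in mt+ and 4.44%, 4.16% and 4.71% in mt-. In set3 it was highest in the widest class, at 5.78% in mt+ and 8.06% in mt-, against 3.20% and 6.43% in the narrowest.

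The fold of a member in WT also went with its share found. Ranked by WT fold into 3 equal classes, the highest class was found in 10.6% of cases in dnmt1 mt+ (95% interval 7.53 to 14.7), against 4.95% (2.97 to 8.13) for the lowest class. In dnmt1 mt- it was 22.4% (17.9 to 27.6) against 11.1% (8.01 to 15.3), in set3 mt+ 21.9% (17.5 to 27.1) against 8.48% (5.76 to 12.3), and in set3 mt- 28.0% (23.1 to 33.4) against 16.4% (12.5 to 21.1). The highest class was also wider, with a median of 2218 bp in WT mt+ and 2190 bp in WT mt-, against 1691 and 1601 bp in the lowest. By covered length the highest class had 2.56% in dnmt1 mt+, close to the 2.38% of the lowest, whereas in dnmt1 mt-, set3 mt+ and set3 mt- it had 6.05%, 7.29% and 8.76%, against 3.53%, 2.97% and 5.32%.

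**Figure D4:**
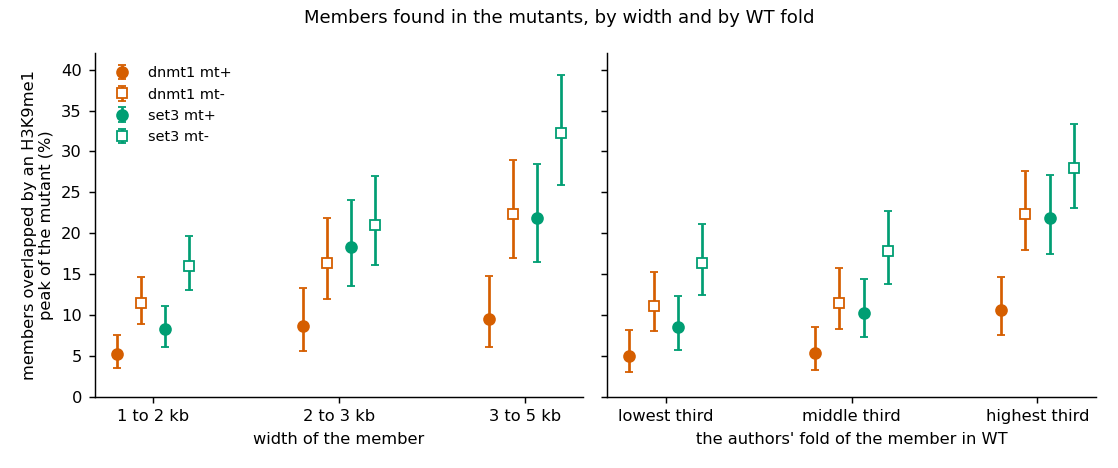
Share of members overlapped by an H3K9me1 peak of dnmt1 or set3 of the same strain (percent, bars are Wilson 95% intervals), by width of the member (left) and by class of its fold in WT (right). In all 4 mutant lists the share is highest in the class of 3 to 5 kb, from 9.55% (dnmt1 mt+) to 32.2% (set3 mt-), and in the highest class of fold, from 10.6% to 28.0%.

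Members without a counterpart in WT of the other strain were seldom found in the mutants. In dnmt1 mt+, 2 of 66 were found (3.03%, 95% interval 0.835 to 10.4), against 57 of 782 members with a counterpart (7.29%, 5.67 to 9.33). In dnmt1 mt-, 0 of 91 were found (Wilson upper limit 4.05%; taking 3 counts as the most that a count of 0 allows, up to 3.30%), against 129 of 768 (16.8%, 14.3 to 19.6). In set3 mt+ it was 6 of 66 (9.09%, 4.23 to 18.4) against 109 of 782 (13.9%, 11.7 to 16.5), and in set3 mt- 9 of 91 (9.89%, 5.29 to 17.7) against 169 of 768 (22.0%, 19.2 to 25.1). The members without a counterpart were also narrower, with a median of 1454 bp against 1947 bp in WT mt+ and 1968 bp in WT mt-.

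Lone members were found in a lower share than members with a close neighbour in both dnmt1 lists, and in a higher share in set3 mt+, while the order in set3 mt- depended on the measure. Members over 5 kb from any other H3K9me1 peak were found in 5.04% of cases in dnmt1 mt+ (2.33 to 10.6) and 16.0% in set3 mt+ (10.5 to 23.6), against 7.32% (5.33 to 9.96) and 12.4% (9.77 to 15.6) for members with a neighbour within 500 bp. In mt- the values were 8.85% (4.88 to 15.5) in dnmt1 and 18.6% (12.5 to 26.7) in set3 for the lone members, against 18.4% (15.2 to 22.1) and 22.4% (18.9 to 26.3). The intervals overlapped in all 4 of these comparisons, in dnmt1 mt- by the least. Lone members were narrower, with medians of 1722 bp in WT mt+ and 1544 bp in WT mt-, against 1940 and 1990 bp. By covered length they had 1.21% in dnmt1 mt+, 3.67% in dnmt1 mt-, 5.35% in set3 mt+ and 8.26% in set3 mt-, against 2.16%, 4.98%, 3.64% and 6.37%, which is lower in dnmt1 and higher in set3 of both strains.

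In the 545 regions shared by both WT lists, mutant peaks were often seen in 1 strain only. A dnmt1 H3K9me1 peak was present in both strains in 34 regions, in mt+ alone in 10, in mt- alone in 50 and in neither in 451, so 60 of the 94 regions with a peak had it in 1 strain. A set3 peak was present in both strains in 68 regions, in mt+ alone in 14, in mt- alone in 58 and in neither in 405, so 72 of 140 had it in 1 strain. In 380 regions (69.7%) none of the 4 mutant lists had an H3K9me1 peak, and in 22 (4.04%) all 4 had one. Among all 2362 pairs of a WT mt+ and a WT mt- H3K9me1 peak that covered at least 50% of each other, 69.9% had a peak in none of the mutant lists and 7.66% in all 4. The share with none was thus near that of all such pairs. Peaks in 1 strain only were also seen over all 2362 pairs. There a dnmt1 peak was present in both strains in 255 pairs, in mt+ alone in 39, in mt- alone in 240 and in neither in 1828. A set3 peak was present in both strains in 332, in mt+ alone in 41, in mt- alone in 170 and in neither in 1819.

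The 6 regions with the highest WT folds differed widely in the mutants. The region on chromosome 15 from 1971964 to 1975694 was covered to 12.7% in dnmt1 mt+, 65.0% in dnmt1 mt-, 76.7% in set3 mt+ and 80.3% in set3 mt-, and had folds of 6.27 in WT mt+ and 5.83 in WT mt-. The region on chromosome 16 from 782972 to 784407 had no H3K9me1 peak in any of the 4 mutant lists, with folds of 6.04 in WT mt+ and 5.60 in WT mt-. The member with the highest fold in WT mt+, 6.48, on chromosome 15 from 267215 to 269546, was covered to 22.3% in dnmt1 mt+ and had no peak in the other 3 mutant lists. So a high rank in WT went with large and with no remaining peaks. On chromosome 5 from 1242578 to 1247489, dnmt1 mt- peaks covered 6.77% and set3 mt- peaks 7.13%, and the mt+ mutants had none. On chromosome 1 from 846196 to 848197 all 4 mutants had a peak, covering 37.3% in dnmt1 mt+, 61.0% in dnmt1 mt-, 72.5% in set3 mt+ and 64.5% in set3 mt-. On chromosome 3 from 8400982 to 8402687 a set3 mt- peak covered 20.3%, and the other 3 mutant lists had none.

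Of the 22 regions with a peak in all 4 mutants, the one covered most lay on chromosome 1 from 321540 to 322737. H3K9me1 peaks covered it to 88.5% in dnmt1 mt+, 96.5% in dnmt1 mt-, 71.2% in set3 mt+ and 76.3% in set3 mt-, and H3K4me3 and H3K9me3 peaks touched it in each dnmt1 and WT list. Next came 2 regions of chromosome 13. From 803436 to 804850 the coverage was 44.9% in dnmt1 mt+, 78.7% in dnmt1 mt-, 78.3% in set3 mt+ and 99.7% in set3 mt-. From 4893676 to 4894925 it was 58.8%, 68.2%, 79.5% and 80.8% in the same order of lists, and H3K9me3 peaks covered 18.5% in dnmt1 mt+ and 22.5% in dnmt1 mt-, against 79.8% in WT mt+ and 58.2% in WT mt-. The other 3 named by this rule lay on chromosome 15, from 3013183 to 3015620, from 5813221 to 5817814 and from 142984 to 147885, where coverage ranged from 16.1% to 51.0% over the dnmt1 mt+ list and from 90.7% to 97.0% over the dnmt1 mt- list. In each of these 3 the dnmt1 mt- peaks covered more than the dnmt1 mt+ peaks.

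Some regions had a peak in 1 mutant and not in the other. A dnmt1 peak in both strains with a set3 peak in neither occurred in 4 regions, and the reverse in 27. The set3 lists were longer, with 2785 peaks in mt+ and 6160 in mt-, against 1248 and 2716 in dnmt1. The same counts were not derived over all pairs of WT peaks, so 4 and 27 cannot be read as particular to members. The 4 lay on chromosome 3 from 7090091 to 7092328 (covered to 66.2% in dnmt1 mt+ and 75.2% in dnmt1 mt-), chromosome 7 from 4430935 to 4432702 (15.3% and 34.4%), chromosome 15 from 1514410 to 1516491 (14.5% and 21.7%) and chromosome 16 from 4291176 to 4293811 (16.4% and 12.0%). On chromosome 3 the dnmt1 folds, 1.64 in mt+ and 1.31 in mt-, were below the medians of interior peaks near the threshold, 1.79 and 1.61. Of the 27, the one covered most lay on chromosome 8 from 2620007 to 2621919, with 38.5% covered in set3 mt+ and 79.3% covered in set3 mt-. The next 3 lay on chromosome 15, from 4462183 to 4464417 (44.7% and 61.5%), from 2140393 to 2143743 (36.5% and 44.9%) and from 3438197 to 3441413 (10.7% and 61.4%). The last 2 named lay on chromosome 2 from 7605185 to 7609543 (23.1% and 48.1%) and chromosome 13 from 2021086 to 2025465 (26.8% and 39.2%). In both of these, H3K4me1, H3K4me3 and H3K9me3 peaks of dnmt1 and WT of both strains also overlapped the region.

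The long runs of members gave a similar picture over longer stretches. On chromosome 12, from 977111 to 1020083, H3K9me1 peaks covered none of the span in dnmt1 mt+ and 0.596% in set3 mt+, against 70.0% in WT mt+. On chromosome 15, from 2103667 to 2164878, they covered none in dnmt1 mt+ and 4.78% in set3 mt+, against 65.0% in WT mt+, and this span also held 18 H3K4me3 peaks in dnmt1 mt+ and 18 in WT mt+. On chromosome 3 the order of the mutants was the other way: from 7083877 to 7120530, peaks covered 12.0% in dnmt1 mt+ and none in set3 mt+, against 69.5% in WT mt+. In mt- the run on chromosome 3 was covered to 13.8% in dnmt1 and 3.13% in set3, against 66.2% in WT, with 4 of 12 members found in dnmt1 and 3 in set3. The mt- run on chromosome 12 was covered to 1.47% in dnmt1 and 2.78% in set3, against 51.6% in WT, and that on chromosome 15 to 1.43% in dnmt1 and 12.8% in set3, against 56.6% in WT.

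H3K4me3 peaks lay beside members and seldom within them. In mt+, dnmt1 H3K4me3 peaks overlapped 120 of 848 members (14.2%, 95% interval 12.0 to 16.7), against 13.8% of all WT mt+ H3K9me1 peaks, and WT H3K4me3 peaks overlapped 96 (11.3%, 9.36 to 13.6), against 10.4% of all. In mt-, dnmt1 peaks overlapped 112 of 859 members (13%, 11 to 15.5), against 13.1% of all WT mt- H3K9me1 peaks, and WT peaks overlapped 105 (12.2%, 10.2 to 14.6), against 12.4% of all. H3K4me3 peaks covered 1.38% of the members' length in dnmt1 mt+, 1.16% in dnmt1 mt-, 0.992% in WT mt+ and 1.13% in WT mt-. Over the whole interiors they covered 12.2%, 11.7%, 11.5% and 12.1% in the same lists.

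The overlaps were mostly at a member's edge. Of 104 overlapping pairs of a member and a WT H3K4me3 peak in mt+, 94 crossed the edge of the member, with a median overlap of 112 bp, and in mt- 108 of 120 did, with a median of 122 bp. The H3K4me3 summit lay in the member in 17.3% of the pairs in WT mt+ and 15% in WT mt-. In dnmt1 it did so in 22.1% of 131 pairs in mt+ and 19.4% of 124 pairs in mt-. At the centres of members, H3K4me3 peaks covered 0.472% of members in dnmt1 mt+, 0.349% in dnmt1 mt-, 0.236% in WT mt+ and 0.233% in WT mt-. At 2.5 kb from the centre they covered 17.5%, 15%, 16.9% and 15.7% in the same lists, and at 10 kb 11.6%, 10.4%, 11% and 10.6%. So the coverage was near 0 at the centre, above the distant level at 2.5 kb, and back near it at 10 kb, in dnmt1 and in WT.

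**Figure D5:**
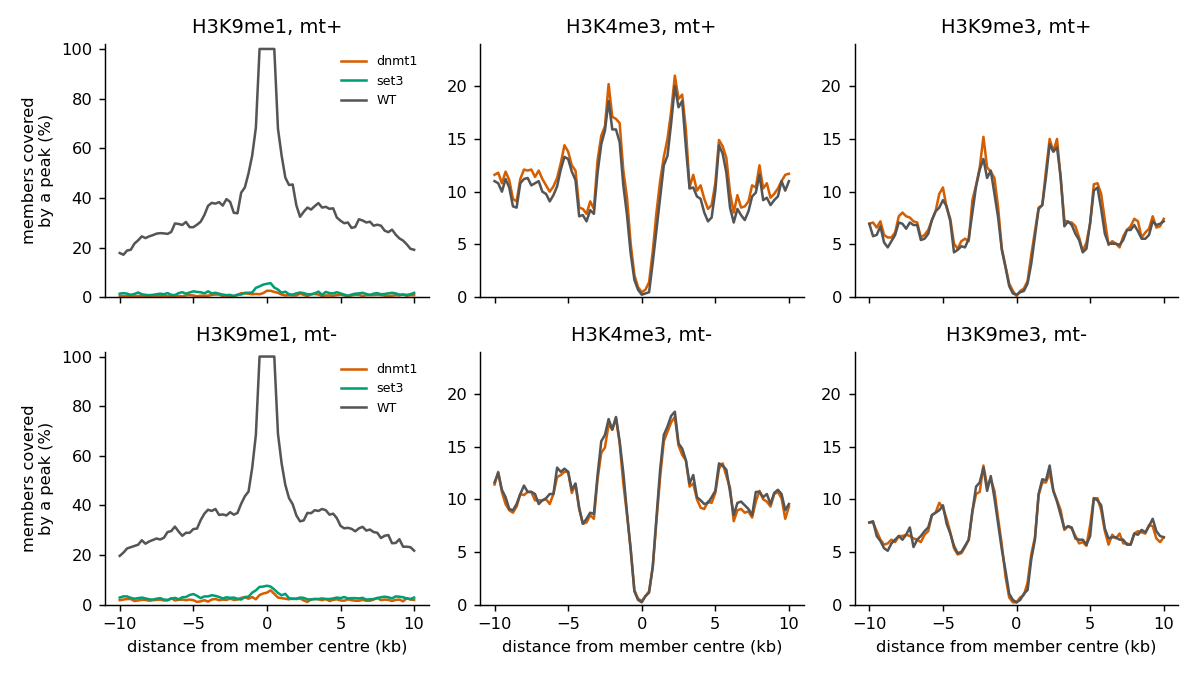
Share of members covered by a peak (percent) against the distance from the member's centre (kb), for H3K9me1, H3K4me3 and H3K9me3, with mt+ above and mt- below, 1 line per genotype. H3K9me1 of WT is 100% at the centre because members are WT H3K9me1 peaks, against 2.59% to 4.89% in dnmt1 and 5.42% to 7.68% in set3, while the H3K4me3 and H3K9me3 lines of dnmt1 and WT dip to below 0.5% at the centre.

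The nearest H3K4me3 peak lay within 1 kb of more than 1 in 2 members. In mt+ it lay at a median of 458 bp in dnmt1 and 708 bp in WT, and in mt- at 569 bp in dnmt1 and 625 bp in WT. It was within 1 kb of 57.5% of members in dnmt1 mt+, 56.1% in dnmt1 mt-, 53.2% in WT mt+ and 55.2% in WT mt-. By this measure, too, members lay between wide and narrow interior H3K9me1 peaks. The distance runs from edge to edge, so a wider peak reaches closer to H3K4me3 by its width alone. No allowance was made for width in these distances. The median distance to the nearest WT H3K4me3 peak was 0 bp for wide peaks in both strains, 288 bp (WT mt+) and 245 bp (WT mt-) for peaks of 1000 to 4999 bp beside a wide one, and 2456 and 2379 bp for narrow peaks. Within 1 kb were 77.7% and 81.6% of the wide peaks, 58.2% and 58.4% of those beside a wide one, and 29.8% and 33.2% of the narrow ones. Over 5 kb from any WT H3K4me3 peak were 127 members (15%) in WT mt+ and 144 (16.8%) in WT mt-.

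Members wholly between 2 neighbouring H3K4me3 peaks numbered 752 of 848 in WT mt+ and 754 of 859 in WT mt-. The intervals that held them had a median length of 9.24 kb in WT mt+, against 4.91 kb for all intervals between H3K4me3 peaks. In WT mt- the medians were 9.18 kb and 4.81 kb. In WT mt+ a member lay in 8.22% of the intervals over 10 kb and in 1.16% of those under 5 kb. In WT mt- it lay in 8.43% and 1.4% of them. A longer interval has more room for a peak of this width, and no allowance was made for that. Most intervals with a member held 1, namely 379 of 530 in WT mt+ and 392 of 532 in WT mt-, and the most in 1 interval was 11 and 12.

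Members that touched a WT H3K4me3 peak were found in a higher share than the rest in all 4 mutant lists, with intervals that overlapped in dnmt1 mt- alone. In dnmt1 mt+ the shares were 13.5% (8.09 to 21.8) of 96 members with H3K4me3, against 6.12% (4.62 to 8.06) of 752 without, and in dnmt1 mt- 22.9% (15.9 to 31.8) of 105, against 13.9% (11.6 to 16.6) of 754. In set3 mt+ they were 27.1% (19.2 to 36.7) against 11.8% (9.72 to 14.3), and in set3 mt- 34.3% (25.9 to 43.8) against 18.8% (16.2 to 21.8). The covered length in set3 was 11% in mt+ and 13.4% in mt- for members with H3K4me3, against 3.51% and 5.89%. In dnmt1 the covered lengths lay closer together, at 2.69% against 1.87% in mt+ and 6.22% against 4.18% in mt-. These members were also of higher fold, with medians of 3.79 (WT mt+) and 3.61 (WT mt-), against 3.03 and 2.99 for the rest, and somewhat wider, at 2033 and 2219 bp against 1887 and 1846 bp.

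Few members gained or lost an H3K4me3 peak between the lists. In mt+, 27 members (3.18%) had one in dnmt1 alone, against 3.55% of all WT mt+ H3K9me1 peaks, and 3 (0.354%) in WT alone, against 0.157% of all. In mt-, 13 (1.51%) had one in dnmt1 alone, against 1.92% of all WT mt- peaks, and 6 (0.698%) in WT alone, against 1.22%. The members' shares with a peak in dnmt1 alone were near those of all peaks. Of the members with H3K4me3 in dnmt1 alone, 3 in mt+ and 2 in mt- still had an H3K9me1 peak in dnmt1.

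Over the 545 shared regions, 4 had an H3K4me3 peak in both dnmt1 lists and in neither WT list. The same count was not derived over all pairs of WT peaks, so it cannot be read as particular to members. On chromosome 9 from 6720100 to 6722643, H3K4me3 peaks covered 27.9% in dnmt1 mt+, with a fold of 5.53, and 51.8% in dnmt1 mt-, with a fold of 4.28. On chromosome 17 from 4427968 to 4428999 they covered 52.8% (fold 4.63) in dnmt1 mt+ and 43.3% (3.65) in dnmt1 mt-. On chromosome 13 from 547603 to 548659 they reached 2.08% (4.53) and 1.4% (3.03), at the edge, and on chromosome 15 from 3212266 to 3213458 19.4% (2.57) and 14.8% (1.67). In none of these 4 did any of the 4 mutant lists have an H3K9me1 peak, which also held for 380 of the 545 regions (69.7%).

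H3K9me3 showed the same dip at members and smaller shares. In mt+, dnmt1 H3K9me3 peaks overlapped 57 members (6.72%, 5.22 to 8.61), against 9.08% of all WT mt+ H3K9me1 peaks, and WT H3K9me3 peaks overlapped 48 (5.66%, 4.30 to 7.42), against 7.15%. In mt-, dnmt1 peaks overlapped 64 members (7.45%, 5.88 to 9.40), against 9.73%, and WT peaks overlapped 66 (7.68%, 6.08 to 9.66), against 7.32%. Of the pairs with WT H3K9me3, 44 of 51 in mt+ and 61 of 71 in mt- crossed the member's edge. H3K9me3 peaks covered 0.118% of member centres in dnmt1 mt+, 0.233% in dnmt1 mt-, 0.236% in WT mt+ and 0.233% in WT mt-. At 2.5 kb from the centre the shares were 13.1%, 10.8%, 12.9% and 11.2% in the same lists. A dnmt1 peak alone was seen in 16 members (1.89%) in mt+, against 3.11% of all WT mt+ H3K9me1 peaks, and 15 (1.75%) in mt-, against 3.72% of all WT mt- peaks. A WT peak alone was seen in 7 (0.825%, against 1.17% of all) in mt+ and 17 (1.98%, against 1.31% of all) in mt-.

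The 4 shared regions with an H3K9me3 peak in both dnmt1 lists and neither WT list included 2 in the long run of members on chromosome 3. This count, too, was not derived over all pairs of WT peaks and cannot be read as particular to members. From 7097609 to 7099872, H3K9me3 peaks covered 25.8% in dnmt1 mt+ and 26.8% in dnmt1 mt-, and dnmt1 H3K9me1 peaks covered 69.6% and 51.5%. From 7090091 to 7092328, H3K9me3 peaks covered 31.3% and 24.6%, and dnmt1 H3K9me1 peaks covered 66.2% and 75.2%. In both, a dnmt1 mt+ H3K4me3 peak covered 15.1% and 15.9%, and the other 3 H3K4me3 lists had none. The remaining pair lay on chromosome 5 from 1789782 to 1792812 and chromosome 17 from 5176517 to 5177784, where H3K9me3 peaks covered 4.52% and 2.05% in dnmt1 mt+ and 3.29% and 0.889% in dnmt1 mt-, beside H3K4me3 peaks present in all 4 lists.

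H3K4me1 peaks differed in place from those of H3K4me3 and H3K9me3, lying inside the member rather than at its edge. H3K4me1 peaks were shorter, with list medians of 312 to 442 bp, against 788 to 822 bp (H3K4me3) and 629 to 656 bp (H3K9me3). A shorter peak fits inside a member more easily, and no allowance was made for that. In mt+, dnmt1 H3K4me1 peaks overlapped 101 members (11.9%, 9.90 to 14.3), against 9.16% of all WT mt+ H3K9me1 peaks, and WT H3K4me1 peaks overlapped 34 (4.01%, 2.88 to 5.55), against 3.45%. In mt-, dnmt1 peaks overlapped 17 members (1.98%, 1.24 to 3.15), against 1.39% of all WT mt- H3K9me1 peaks, and WT peaks overlapped 72 (8.38%, 6.71 to 10.4), against 5.01%. The direction was opposite in the strains, and the lengths of the H3K4me1 lists moved the same way, 12718 peaks in dnmt1 mt+ against 2067 in WT mt+ and 1104 in dnmt1 mt- against 5151 in WT mt-. The part of list length in the members' shares was not tested. H3K4me1 peaks in dnmt1 alone were seen in 75 members (8.84%) in mt+, against 6.66% of all peaks, and 8 (0.931%) in mt-, against 0.559%. Those in WT alone were seen in 8 (0.943%) in mt+, against 0.940% of all, and 63 (7.33%) in mt-, against 4.18%. The peak lay wholly inside the member in 110 of 131 pairs in dnmt1 mt+, 16 of 17 in dnmt1 mt-, 38 of 41 in WT mt+ and 82 of 90 in WT mt-. Of the members' length H3K4me1 peaks covered 3.51% in dnmt1 mt+, 0.296% in dnmt1 mt-, 0.931% in WT mt+ and 1.99% in WT mt-. Of the interiors as a whole they covered 5.93%, 0.337%, 0.704% and 1.80%. With H3K4me1 peaks limited to a −log10 q-value of at least 5, 13 members were found in dnmt1 mt+, 0 in dnmt1 mt-, 0 in WT mt+ and 3 in WT mt-, so most of these overlaps rested on peaks with a −log10 q-value under 5.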

How the data were processed

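The 18 ChIP-seq peak lists of 1 library each were used as deposited. Per the submitters' processing notes, the tools used included MACS2 2.2.7.1, which calls peaks, Bowtie2 2.4.2 for alignment, Trim Galore 0.6.7, deepTools 3.5.1 and Picard, with no settings given. The sources used here name no genome build. For each peak the authors deposited an integer display score, a fold (a linear ratio over local background), the −log10 p-value, the −log10 q-value and the summit. The score and the −log10 p-value, as deposited, entered no result. The lowest deposited −log10 q-value of every list was at or just above 2.

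Members, overlaps and covered lengths were computed with Python 3.11.15, numpy 2.4.6, pandas 2.3.3 and scipy 1.17.1, and figures were drawn with matplotlib 3.10.9. A chromosome was taken to end at the farthest peak end in any of the 18 lists. The overlap functions were tested on simulated data. Profiles were taken every 250 bp up to 10 kb from the members' centres. The members, and the rules for the regions named, were chosen with earlier results of these data known. Named regions had a WT mt+ and a WT mt- member covering at least 50% of each other. Up to 6 were taken per rule: by the sum of fold ranks in WT, by mean covered length in all 4 mutant lists or in 1 mutant, and by fold ranks of H3K4me3 or H3K9me3 peaks found in dnmt1 alone. The 3 longest runs of each list and the 3 peaks on each side of each width limit were also named. With 1 library per combination no test was made. The alternatives were at least 50% of the member covered, compared peaks with a −log10 q-value of at least 5, no wide peak within 20 kb, members found in the other WT list, and leaving out chromosome 15. Sequences and gene annotation were not used here.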

Additional observations from a re-analysis of the deposited data

Results flagged for a closer look

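The share of members with an H3K4me1 peak moved in opposite directions in the strains. Set as dnmt1 minus WT, it was 7.90 percentage points in mt+ and -6.40 in mt-. For H3K9me3 the differences also had opposite signs, 1.06 percentage points in mt+ and -0.233 in mt-, where the counts were 64 against 66 of 859 members. In mt+, 16 members had a peak in dnmt1 alone and 7 in WT alone. In mt- these were 15 and 17. With 1 library per list, these counts cannot decide whether the genotypes differ. Each value compares 1 dnmt1 library with 1 WT library, and the difference between the strains was not tested.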

How the results depend on the processing

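Of 18 shares of members with a peak, all moved out of their 95% interval when at least 50% of the member had to be covered. The share found in the other WT list was then 89.0% for WT mt+ members and 82.4% for WT mt- members. For H3K9me1 it was 1.30% in dnmt1 mt+, 2.68% in dnmt1 mt-, 2.12% in set3 mt+ and 3.73% in set3 mt-. For H3K4me3 it was 0.354% in dnmt1 mt+, 0.233% in dnmt1 mt-, 0% in WT mt+ and 0.116% in WT mt-. For H3K9me3 it was 0%, 0.116%, 0.118% and 0.349%, and for H3K4me1 1.53%, 0.116%, 0% and 0.349%, in the same lists. This criterion asks for longer overlap by construction.

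With compared peaks limited to a −log10 q-value of at least 5, 9 of the 18 moved. H3K9me1 was then found in 4.60% of members in dnmt1 mt+, 9.66% in dnmt1 mt-, 6.49% in set3 mt+ and 11.4% in set3 mt-, and in 87.0% of WT mt- members in WT mt+. H3K4me1 was found in 1.53% in dnmt1 mt+, 0% in dnmt1 mt-, 0% in WT mt+ and 0.349% in WT mt-, so most H3K4me1 overlaps rest on peaks below that value. The other 9, including all 8 shares for H3K4me3 and H3K9me3, stayed within their intervals. None of the 18 left its interval with no wide peak within 20 kb or without chromosome 15, the last chosen after the data were seen, nor did any of the 16 that could be recomputed over members found in the other WT list.

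No paired analysis was possible by replicate number because each combination of mark, genotype and strain had 1 library. Pairing by strain gives 2 pairs of dnmt1 and WT, and no fit over them was made. The differences in share within each strain, dnmt1 minus WT, were 2.83 percentage points in mt+ and 0.815 in mt- for H3K4me3, and 1.06 and -0.233 for H3K9me3. The lists hold no read counts. A region without a peak is one where no signal passed the authors' threshold, and how list length bears on the shares was not tested.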
